A study of Homo sapiens with 6 samples.

Results

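Cytokines, chemokines and colony-stimulating factors are the secreted signals by which cells call and instruct leukocytes and other neighbours. A list of 44 genes for such ligands and their receptors was examined among the 60612 genes of the table. The list names genes by function, but it was drawn up with earlier results of these libraries known, and all 44 symbols were found. Of these, 31 code for ligands and 13 for receptors. RNA came from U87 cells, an established human glioblastoma line, in 3 libraries of cells with a lentiviral scramble shRNA (NC) and 3 libraries of cells with a lentiviral shRNA against PRMT6 (shPRMT6), an enzyme that methylates arginine residues of histones and other proteins. Cells of both groups were grown in DMEM with fetal bovine serum and received the virus with polybrene, and stable cells were selected with puromycin according to the methods. No cytokine or other stimulus is named for either group. The shRNA of the shPRMT6 libraries is not identified further, so the comparison rests on a single cell line and on shRNA cells against scramble cells. The methods call the replicates independent without saying whether cultures or infections were separate, so the p-values measure only the spread between these libraries.

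Ligands of these families act through a few shared designs. Interleukin-6 type cytokines signal through gp130, a receptor chain coded by IL6ST, to JAK kinases and STAT factors. The interleukin-1 ligands IL1A and IL1B bind IL1R1 with its partner IL1RAP and act through MYD88. The CXC chemokines with a Glu-Leu-Arg (ELR) motif draw neutrophils through CXCR1 and CXCR2. Colony-stimulating factors drive growth and survival of granulocytes and macrophages. In glioblastoma, tumour cells are known as a source of several of these factors.

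Total counts ran from 56388161 to 75887696 per library. A count of 0 allows up to 3 counts, which is 0.0395 to 0.0536 CPM (read counts scaled to library size) depending on the library, and these limits cover counting error only. PRMT6 itself had 9.33, 7.97 and 7.19 CPM in NC and 3.57, 4.58 and 5.24 CPM in shPRMT6, with no overlap between the groups. It fell by 0.87 on the log2 scale (SE 0.187, adjusted p = 0.0225, edgeR's quasi-likelihood test), and that call was lost without NC replicate 1 (-0.77), shPRMT6 replicate 1 (-0.73) or shPRMT6 replicate 2 (-0.89). The glioma and mesenchymal markers VIM, CD44, NES, S100A6, TNC and CAV1 were all expressed. Of these 6, TNC was called lower (-0.35, SE 0.0509, adjusted p = 0.00585, edgeR) and 0 were called higher. The 3 genes CDKN2A, CDKN2B and MTAP, known to be deleted in U87, summed to between 0.0143 and 0.0346 FPKM in every library.

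Knockdown cells held less RNA of many of these ligands. Of the 44 genes, 35 passed the filter on low counts and were tested by edgeR with Benjamini-Hochberg adjustment over all 18106 genes tested. RNA of 12 fell in shPRMT6 at an adjusted p under 0.05, beside 9.06% of all genes tested that were called lower, and RNA of 3 rose, beside 9.51% of all genes called higher. The 12 make up 34.3% of the 35 and the 3 make up 8.57%, and 18.6% of all genes tested were called in either direction. The 12 lower genes were CSF2, CXCL5, CXCL3, CXCL8, LIF, CCL20, IL6, CXCL2, IL1B, CLCF1, IL6ST and IL11, and the 3 higher genes were IL4R, IL15 and IL33. Among the 24 ligands tested, 11 were called lower (45.8%) and 2 higher (8.33%), with a median log2 fold change of -0.52. Among the 11 receptors tested, 1 was called lower and 1 higher (9.09% each), with a median of 0.11. The median over all genes tested was -0.01. In bulk RNA, fewer cells making a transcript and less of it per cell cannot be told apart.

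The groups did not overlap for 18 genes that were lower and 6 that were higher in every shPRMT6 library, beside 19.9% and 20.3% of all genes tested. The study's own limit for a changed gene was a log2 fold change beyond 1 in size together with p under 0.05, read here as unadjusted. By that limit CSF2, CXCL3 and CXCL5 were lower, beside 2.63% of all genes. In the higher direction 0 of the 35 passed it in edgeR, beside 3.29% of all genes. With DESeq2 1 passed it, and the share of all genes past it there was not counted. In edgeR 16 of the 35 were lower and 5 higher at an unadjusted p under 0.05, beside 5905 of all 18106 genes in either direction. At an adjusted p under 0.05, DESeq2 called 15 of the genes lower and 5 higher, beside 15.7% and 16.3% of all genes it tested.

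**Figure D1:**
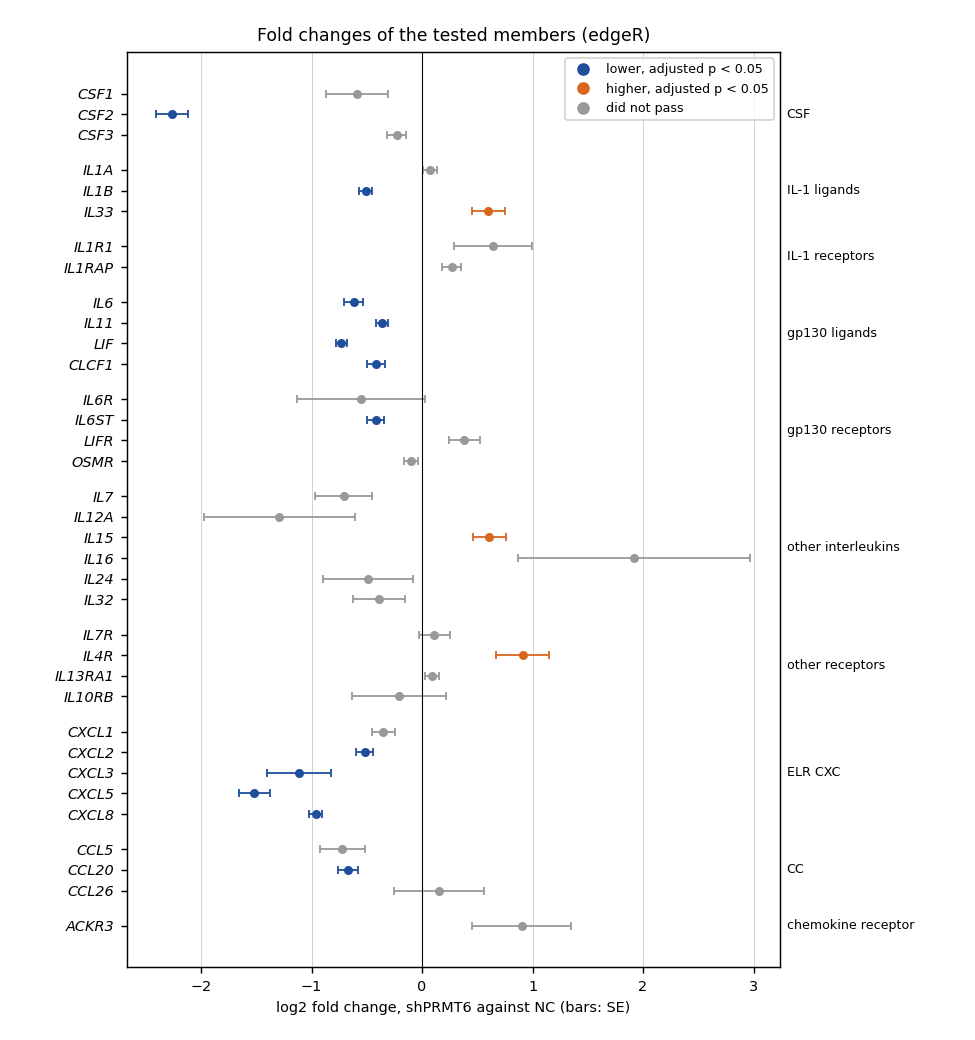
Log2 fold change of each of the 35 tested genes (horizontal axis, shPRMT6 against NC, bars are the SE derived from the edgeR test), grouped by role. Blue marks the 12 genes called lower, orange the 3 called higher and grey the 20 that did not pass; CSF2 lies farthest to the left at -2.26.

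The colony-stimulating factors held the largest change of the list. CSF2 codes for GM-CSF, which drives granulocyte and macrophage production. Its RNA measured 11.1, 10.4 and 9.79 CPM in NC replicates 1 to 3 and 2.36, 1.88 and 2.26 CPM in shPRMT6 replicates 1 to 3. Every shPRMT6 library lay far below every NC library. The mean fell from 10.4 ± 0.641 to 2.17 ± 0.249 CPM (SD, n = 3), which is 20.8% of NC, with a log2 fold change of -2.26 (SE 0.143, adjusted p = 0.00051, edgeR). CSF2 is among the genes that the study picked for display from these same libraries, so its direction is not independent evidence. CSF1, the macrophage growth factor, measured 27.3, 32.9 and 27.5 CPM in NC and 11.3, 24.4 and 22.5 CPM in shPRMT6. These groups did not overlap, but shPRMT6 replicate 1 stood apart from the other two, and the difference did not pass (log2 fold change -0.59, SE 0.280, adjusted p = 0.201, edgeR). CSF3, the granulocyte factor G-CSF, measured 1212, 966 and 1146 CPM in NC and 969, 954 and 904 CPM in shPRMT6. Its groups overlapped, and it did not pass (-0.23, adjusted p = 0.123) except with DESeq2 (0.0363) and without NC replicate 2 (-0.32, adjusted p = 0.0156).

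CSF2 lies on chromosome 5 of GRCh38 from 132073790 to 132076170, plus strand. Its 3' UTR of 318 bases holds the letters ATTTA 8 times. The AU-rich nonamer TTATTTATT is shown in capitals for the transcripts described here because repeats of these letters are known as a mark of short-lived cytokine messages, and the windows below are from GENCODE 29 on GRCh38 in the sense direction.
CSF2 (chr5:132076077-132076105, plus): aaatatttatTTATTTATTtatttaagtt
CXCL8 (chr4:73742664-73742692, plus): atgtaaagtaTTATTTATTtgaatctaca
CXCL2 (chr4:74097582-74097610, minus): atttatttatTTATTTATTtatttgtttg
IL1B (chr2:112829995-112830023, minus): gcttccctatTTATTTATTtatttgtttg
LIF (chr22:30240535-30240563, minus): cagattatttTTATTTATTcaatgtcata

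The nonamer was found in the 3' UTR of 11 of the 35 tested genes (31.4%), beside 1233 of 13096 tested genes with a 3' UTR of at least 50 bases (9.40%). These 11 were CSF2, LIF, IL1B, IL11, CLCF1, CXCL1, CXCL2, CXCL3, CXCL8, LIFR and OSMR. Of the 11, 8 were called lower and 0 higher, and their median log2 fold change was -0.51. Of the 24 without the nonamer, 4 were called lower and 3 higher, with a median of -0.22. Over all tested genes, 12.1% of those with the nonamer and 11% of those without it were called lower. The match describes letters in these transcripts, and its part in the fold changes was not tested.

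Transcripts of the ELR chemokines formed the largest mass of ligand RNA. CXCL8, or interleukin-8, is the chief human neutrophil attractant. It measured 2457, 2263 and 2201 CPM in NC and 1236, 1177 and 1152 CPM in shPRMT6. Its RNA fell to 51.5% of the NC mean, from 2307 ± 134 to 1188 ± 43.1 CPM (SD, n = 3), a log2 fold change of -0.96 (SE 0.0591, adjusted p = 0.000504, edgeR). CXCL5, which also attracts neutrophils, measured 11.9, 11.7 and 12.1 CPM in NC and 4.51, 3.48 and 4.5 CPM in shPRMT6. That is a fall to 34.9% of NC (log2 fold change -1.52, SE 0.140, adjusted p = 0.00153, edgeR). No shPRMT6 library of CXCL8 or CXCL5 came near an NC library.

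CXCL2, a chemokine of the growth-regulated oncogene group, measured 195, 168 and 188 CPM in NC and 134, 125 and 124 CPM in shPRMT6. The groups did not overlap, with a log2 fold change of -0.52 (SE 0.0736, adjusted p = 0.0054, edgeR). CXCL3, its close relative, measured 55.4, 30.6 and 50.9 CPM in NC and 25.4, 23.5 and 14.4 CPM in shPRMT6. NC replicate 2 lay near the shPRMT6 range, although the groups did not overlap. CXCL3 passed narrowly (log2 fold change -1.11, SE 0.290, adjusted p = 0.0418, edgeR), and the call was lost without NC replicate 1 (-0.96, adjusted p = 0.111), NC replicate 3 (-1.03, 0.120), shPRMT6 replicate 1 (-1.27, 0.0711), shPRMT6 replicate 2 (-1.20, 0.0964) or shPRMT6 replicate 3 (-0.90, 0.0951). Of the 75-base stretches of CXCL2 transcripts, 7.07% also occur in CXCL3 or CXCL1, and 4.57% of those of CXCL3 occur in CXCL2. Reads there could be lost or counted for another gene. CXCL1 measured 21.2, 21.5 and 18.4 CPM in NC and 16.6, 16.7 and 14.7 CPM in shPRMT6. Its groups did not overlap either, but it did not pass in edgeR (-0.35, adjusted p = 0.0667), while it did with DESeq2 (adjusted p = 0.00695). CXCL6, the nearest relative of CXCL5, had 0 counts in every library.

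**Figure D2:**
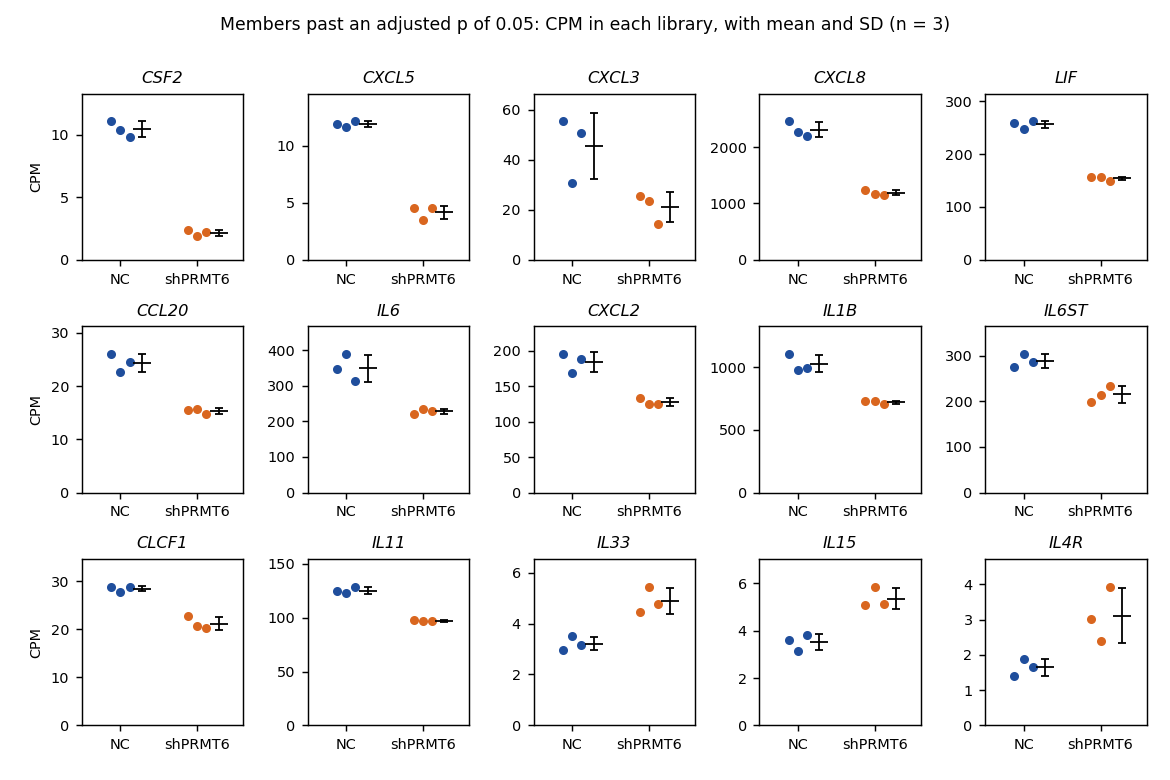
CPM of the 15 genes past an adjusted p of 0.05 in each library (vertical axes start at 0), with the mean and SD of 3 libraries drawn beside the points. The groups do not overlap in any panel; CXCL3 and IL4R show the widest spread for their level.

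All 6 ELR genes of the list lie in a cluster on chromosome 4 of GRCh38, which runs here from CXCL8 (73740506 to 73743716) to CXCL2 (74097035 to 74099293). RefSeq promoter sequence, from 250 bases before to 50 after the start on GRCh38.p14, was matched for 31 of the 44 genes. The NF-kB motif, searched on both strands, was found in 5 of these 6 ELR promoters, and the windows are shown because the related genes carry the same motif at about the same distance from the start. Each is given in the direction of its gene with the motif in capitals, and IL6 and CCL20 are added as genes called lower. The motif also stood in the promoters of IL4R, which was called higher, and of IL32 and IL12A, which were not called. Their windows are not shown.
CXCL1 (chr4:73869304-73869333, plus): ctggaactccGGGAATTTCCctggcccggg
CXCL2 (chr4:74099254-74099283, minus): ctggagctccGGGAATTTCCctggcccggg
CXCL3 (chr4:74038749-74038778, minus): ctggagctccGGGAATTTCCctggcccggc
CXCL5 (chr4:73998749-73998778, minus): catgagttcaGGGAATTTCCccagcatccc
CXCL6 (chr4:73836578-73836607, plus): cctgagttcaGGGAATTTCCccagcatccc
IL6 (chr7:22727117-22727146, plus): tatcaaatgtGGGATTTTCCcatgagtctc
CCL20 (chr2:227813753-227813782, plus): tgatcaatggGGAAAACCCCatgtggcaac

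Counted from the RefSeq start, the capitals begin at -79 in CXCL1, CXCL3 and CCL20, at -78 in CXCL2, -91 in CXCL5, -90 in CXCL6 and -73 in IL6. In CCL20 they match on the opposite strand, and in the CXC genes the opposite strand also matches, shifted by 1 base. CXCL6, which had no counts, carries the same capitals as CXCL5. Of the 27 tested genes with a promoter, 9 (33.3%) held the motif, beside 6.54% of 11796 tested promoters and 5.72% of all 27305. Of those 9, 5 were called lower and 1 higher, and of the 18 without it 5 were called lower and 1 higher. Over all tested promoters the share called lower was 11.9% with the motif and 10.3% without it.

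The AP-1 letters TGANTCA stood in 5 of the 27 promoters (18.5%), those of CXCL8, IL11, IL1A, IL6R and OSMR, beside 5.21% of the tested promoters. The STAT letters TTCNNNGAA stood in another 5, those of CSF2, CXCL5, IL10RB, IL1B and LIFR, beside 6.52%. Both patterns read the same on either strand, and in CXCL5 the STAT letters overlap the capitals shown above. A match says only that these letters are in the window.

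All 4 gp130 ligand genes of the list were called lower, beside 9.06% of all genes tested, although the call of CLCF1 was lost in 4 of 15 other settings. Outside the list, CNTF (-0.49, adjusted p = 0.255, edgeR) and CTF1 (0.14, 0.453) did not pass. LIF, leukemia inhibitory factor, keeps several stem cell types undifferentiated. It measured 258, 248 and 262 CPM in NC and 156, 156 and 149.9 CPM in shPRMT6. It fell to 60.1% of NC (log2 fold change -0.73, SE 0.0521, adjusted p = 0.000727, edgeR). IL6, the acute-phase cytokine, measured 346, 389 and 312 CPM in NC and 219.8, 236 and 228 CPM in shPRMT6. It fell to 65.3% of NC (log2 fold change -0.62, SE 0.0873, adjusted p = 0.00559, edgeR). The groups did not overlap for LIF or IL6. Exons on the opposite strand overlap both genes (as they do IL6ST, with AC008914.1, and IL4R, with AC106739.1), and without strand their reads cannot be told apart from those of LIF-AS1 and AC004264.1 for LIF or of AC073072.1 and STEAP1B for IL6.

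IL11, which acts on stromal and blood-forming cells, measured 124, 123 and 129 CPM in NC and 98.2, 96.9 and 96.5 CPM in shPRMT6. This was the smallest fall called and among the tightest in spread (log2 fold change -0.36, SE 0.0527, adjusted p = 0.00594, edgeR). CLCF1, a ligand of the CNTF receptor whose exons overlap AP003419.1 on the same strand, measured 28.8, 27.9 and 28.9 CPM in NC and 22.8, 20.7 and 20.3 CPM in shPRMT6. It passed (-0.42, SE 0.0823, adjusted p = 0.0160, edgeR), but not without NC replicate 3 (-0.42, adjusted p = 0.0573), shPRMT6 replicate 2 (-0.40, 0.0714) or shPRMT6 replicate 3 (-0.39, 0.0661).

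Of the 4 gp130-type receptor genes in the list of 44, IL6ST was the 1 called. Among related receptors in the wider list below, IL31RA rose (0.85, adjusted p = 0.00713, edgeR). IL11RA (0.24, 0.411) and IL27RA (0.02, 0.977) did not pass. IL6ST codes for the shared chain gp130 and measured 275, 303 and 286 CPM in NC and 198, 214 and 234 CPM in shPRMT6. Every shPRMT6 library was lower, at 74.8% of NC on average (log2 fold change -0.42, SE 0.0787, adjusted p = 0.0143, edgeR). Without shPRMT6 replicate 2 the same value did not pass (-0.42, adjusted p = 0.0578), and 7.05% of its 75-base stretches also occur elsewhere, including the pseudogene IL6STP1. OSMR, the oncostatin M receptor, had a log2 fold change of -0.10 (adjusted p = 0.358), LIFR of 0.38 (0.116) and IL6R of -0.55 (0.566). LIFR was higher in every shPRMT6 library, and it passed with DESeq2 (adjusted p = 0.0234) and without NC replicate 2 (0.51, 0.0435). IL6R, the chain that binds IL6, varied as much within the groups as between them, at 6.19, 5.84 and 1.47 CPM in NC and 3.49, 1.61 and 4.10 CPM in shPRMT6.

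Among the interleukin-1 family ligands of the list the 3 genes tested went different ways. IL1B, the secreted inflammatory form, measured 1103, 979 and 994 CPM in NC and 728, 727 and 706 CPM in shPRMT6. It fell to 70.2% of NC with no overlap (log2 fold change -0.51, SE 0.0600, adjusted p = 0.003, edgeR). IL1A, its neighbour on chromosome 2, measured 83.4, 89.4 and 80.5 CPM in NC and 89.5, 89.2 and 87.9 CPM in shPRMT6. Its groups overlapped, and its log2 fold change was 0.07 (SE 0.0621, adjusted p = 0.466). IL33, a nuclear alarmin, was rare at 2.97, 3.51 and 3.17 CPM in NC and 4.46, 5.44 and 4.78 CPM in shPRMT6. It rose to 152% of NC (0.60, SE 0.152, adjusted p = 0.0377, edgeR), and the call was lost in each of the 6 fits that left out a library, with log2 fold changes from 0.52 to 0.67 and adjusted p from 0.0517 to 0.127. IL18 had 8, 0 and 8 counts in NC and 0, 0 and 26 in shPRMT6 and was not tested.

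The signalling receptor IL1R1 ranged from 17.0 to 37.3 CPM in NC and from 27.0 to 53.2 CPM in shPRMT6 and did not pass (0.64, SE 0.355, adjusted p = 0.263). Its partner IL1RAP was higher in every shPRMT6 library but did not pass either (0.27, SE 0.0852, adjusted p = 0.071). It did with DESeq2 (adjusted p = 0.00497) and without NC replicate 2 (0.33, 0.0487).

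CC chemokines were few in these cells. CCL20, the ligand of CCR6 that draws lymphocytes and dendritic cells, measured 26.0, 22.6 and 24.4 CPM in NC and 15.5, 15.7 and 14.8 CPM in shPRMT6. It fell to 62.9% of NC without overlap (log2 fold change -0.67, SE 0.0901, adjusted p = 0.00473, edgeR). CCL5, a T cell attractant, measured 3.31, 3.09 and 4.28 CPM in NC and 2.47, 1.90 and 2.13 CPM in shPRMT6. The groups did not overlap, yet it narrowly missed the threshold (-0.72, SE 0.201, adjusted p = 0.0526), and with DESeq2 it passed (0.0045). CCL26, an eosinophil attractant, measured 0.715, 1.14 and 0.513 CPM in NC and 0.597, 0.894 and 1.15 CPM in shPRMT6, with overlapping groups. CCL2 had at most 6 counts in any library and CCL7 had none.

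Of the other interleukins, IL15 was called. IL15 supports natural killer and memory T cells and measured 3.59, 3.13 and 3.80 CPM in NC and 5.09, 5.85 and 5.12 CPM in shPRMT6. It rose to 153% of NC (0.61, SE 0.147, adjusted p = 0.033, edgeR), and lost the call in each of the 6 fits without a library (0.53 to 0.67, adjusted p from 0.0654 to 0.114). IL12A, a subunit of interleukin-12, measured 0.858, 0.842 and 0.945 CPM in NC and 0.126, 0.179 and 0.768 CPM in shPRMT6. The log2 fold change of -1.29 (SE 0.680) did not pass (adjusted p = 0.243), and shPRMT6 replicate 3 lay near the NC range. Without that library the value was -2.52 (adjusted p = 0.0236). IL16, a T cell attractant, measured 0.286, 0.197 and 0 CPM in NC and 0.424, 0.357 and 1.05 CPM in shPRMT6. It did not pass (1.92, SE 1.05, adjusted p = 0.260), and 34.2% of its 75-base stretches are shared with STARD5 or AC103858.1. IL12A and IL16 reached the filter level in every library of 1 group only. IL7 (-0.71, adjusted p = 0.109), IL24 (-0.49, 0.455) and IL32 (-0.39, 0.303) did not pass.

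Of the remaining 4 receptors tested outside the chemokine group, IL4R was called. IL4R binds interleukin-4 and measured 1.41, 1.88 and 1.65 CPM in NC and 3.02, 2.39 and 3.93 CPM in shPRMT6. It rose to 189% of NC without overlap (0.91, SE 0.242, adjusted p = 0.0445, edgeR), but its call stood in only 1 of the 6 fits without a library, that without shPRMT6 replicate 2, and the adjusted p of the other 5 ran from 0.0631 to 0.126. IL13RA1, a chain of the interleukin-13 receptor, was abundant and differed by 0.09 (SE 0.0629, adjusted p = 0.386). IL7R had a log2 fold change of 0.11 (adjusted p = 0.657) and ACKR3, a scavenger of CXCL12, of 0.90 (SE 0.445, adjusted p = 0.216). IL10RB scattered widely within both groups, at 28.4, 54.8 and 51.5 CPM in NC and 25.4, 64.8 and 26.1 CPM in shPRMT6, and 35.4% of its 75-base stretches are shared with AP000295.1. IL13RA2, CXCL12 and CX3CL1 had 0 counts in every library. CXCL16 had 8 counts in NC replicate 3 and CXCR4 had 16 in shPRMT6 replicate 3, with 0 in the others.

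Levels between genes can be compared per transcript length, as FPKM. CXCL8 stood highest in both groups, at 867 ± 41.9 FPKM in NC and 449 ± 15.9 FPKM in shPRMT6 (SD, n = 3). CSF3 followed at 420.1 ± 47.4 and 359 ± 12.5 FPKM, then IL1B at 287 ± 16.6 and 203 ± 3.14 FPKM. IL6 came next at 142 ± 15.0 and 93.2 ± 3.19 FPKM, and CXCL2 after it at 111 ± 8.11 and 77.3 ± 3.07 FPKM. The order of these 5 was the same in both groups. The gaps between neighbours exceeded the summed SDs in both groups. CSF2, whose fold change was the largest, was modest in level, at 11.1 ± 0.576 FPKM in NC and 2.32 ± 0.267 FPKM in shPRMT6. The most abundant receptor genes were IL13RA1, at 34.2 ± 2.15 and 36.6 ± 1.25 FPKM, OSMR, at 26.7 ± 1.88 and 25.1 ± 0.0446 FPKM, and IL6ST, at 24.0 ± 1.30 and 18 ± 1.57 FPKM. In NC the ranges of OSMR and IL6ST lay within their spread of each other, while in shPRMT6 all 3 stood apart.

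**Figure D3:**
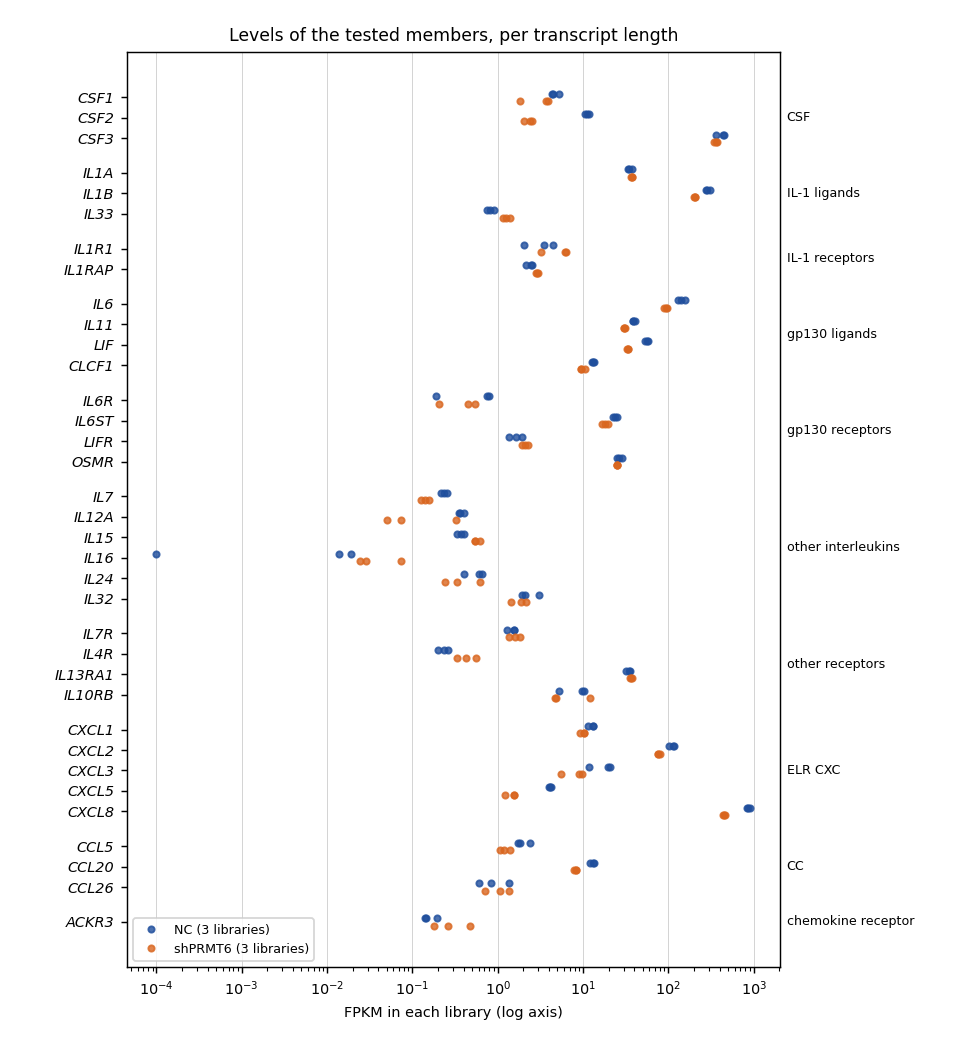
FPKM of the 35 tested genes in each of the 6 libraries (horizontal log axis), blue for NC and orange for shPRMT6, grouped by role. CXCL8, CSF3 and IL1B lie farthest to the right, and most interleukins outside the IL-1 and gp130 groups lie under 1 FPKM.

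Summed over the 31 ligand genes, FPKM came to 2148, 1957 and 2015 in NC and 1365, 1336 and 1296 in shPRMT6. The sum over the 13 receptor genes was 94.3, 112 and 103 FPKM in NC and 93.5, 104 and 102 FPKM in shPRMT6. The ligand sums did not overlap between the groups and the receptor sums did. CXCL8 was the largest contributor to the ligand sum in both groups.

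**Figure D4:**
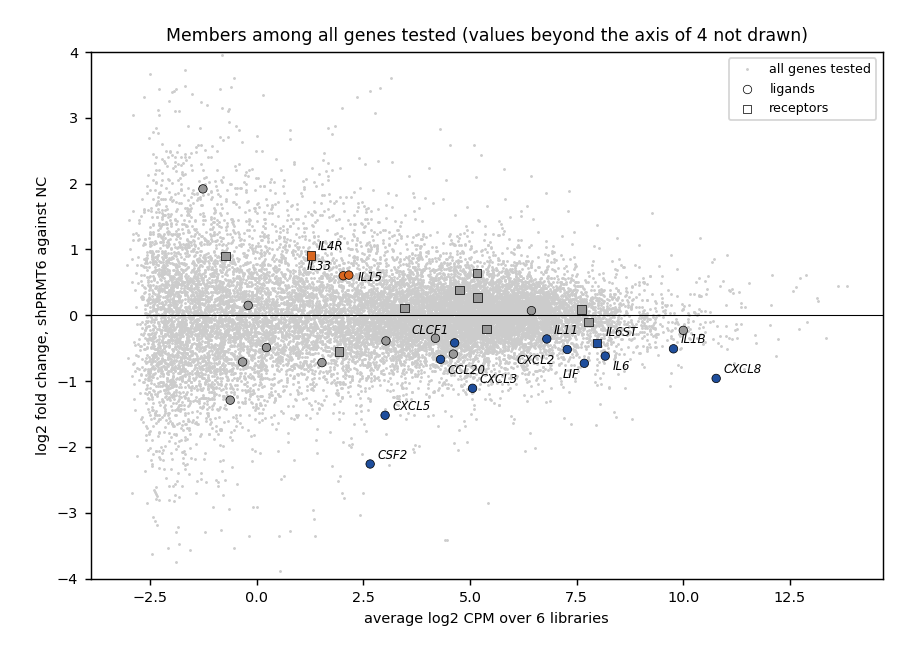
Log2 fold change against average log2 CPM for all 18106 tested genes (grey points) and the 35 tested genes of the list (circles for ligands, squares for receptors, blue called lower, orange called higher, dark grey not called). The called lower genes spread from moderate to very high expression, with CXCL8 farthest to the right among them, and the 3 called higher sit at low expression.

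A wider list of 113 other cytokine, chemokine and receptor genes was counted from the same fit. Only 37 were tested, and 51 had 0 counts everywhere. CCL3, a macrophage inflammatory protein, was the 1 called lower (log2 fold change -0.95, SE 0.165, adjusted p = 0.0108, edgeR). Genes called lower thus made up 2.7% of those tested, beside 9.06% of all genes, and the 5 called higher made up 13.5%, beside 9.51%. IL21R rose from 8.23 ± 0.687 to 26.8 ± 1.62 CPM (1.71, SE 0.104, adjusted p = 0.000493, edgeR), and IL17RC and CCR1 rose by 1.07 (SE 0.0889) and 1.06 (SE 0.114). IL36B, an interleukin-1 family ligand, rose by 0.97 (SE 0.0964, adjusted p = 0.00185), and IL31RA, named outside the rule for genes, by 0.85 (SE 0.13, adjusted p = 0.00713). CXCR1 and CXCR2, the receptors of the ELR chemokines, had 0 counts in every library, as did CCR6 for CCL20 and CSF3R for CSF3. CSF2RB, the signalling chain for GM-CSF, had none either, and CSF2RA at most 14. CSF1R was at 2.11 ± 0.308 FPKM in NC and 2.09 ± 0.0978 FPKM in shPRMT6 and did not pass (-0.02, adjusted p = 0.932).

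Genes that carry the signal inward were counted likewise, with 40 of 44 tested, 2 called lower and 2 higher. That is 5% in each direction, beside 9.06% and 9.51% of all genes tested. All 4 belong to the JAK and STAT list. SOCS3, a feedback inhibitor of gp130 signalling that its own pathway induces, fell from 68.8 ± 2.21 to 47.6 ± 2.82 CPM (log2 fold change -0.53, SE 0.0706, adjusted p = 0.00458, edgeR). STAT3, the main factor downstream of gp130, rose from 57.3 ± 0.974 to 102 ± 4.98 CPM (0.83, SE 0.0622, adjusted p = 0.000822, edgeR). STAT4 rose by 1.43 (SE 0.242, adjusted p = 0.00994) from a low level, and PIAS4, a SUMO ligase, fell by 0.46 on the log2 scale (SE 0.118, adjusted p = 0.0397). Of 17 interleukin-1 signalling genes tested, 0 were called in edgeR in either direction. At an unadjusted p under 0.05, 2 of them were lower and 4 higher, beside 5905 of all 18106 genes in either direction. DESeq2 also called 2 lower and 4 higher, beside 15.7% and 16.3% of all genes it tested.

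Defining markers of other cells that make or receive these factors were mostly at or near 0. Of 9 macrophage and microglia markers, 7 had under 10 counts in every library, and AIF1, CX3CR1 and P2RY12 had none at all. Their summed level was 1.82 to 2.34 FPKM in NC and 2.06 to 2.24 FPKM in shPRMT6, nearly all of it CSF1R. Of 6 lymphocyte markers, 4 were at 0 everywhere, and the sum was 0.0889 to 0.140 FPKM in NC and 0 to 0.312 FPKM in shPRMT6. The 5 endothelial markers summed to 1.49 to 1.93 FPKM in NC and 2.56 to 2.77 FPKM in shPRMT6, with no overlap between the groups. Of the 3 that were tested, TEK rose (0.60, SE 0.138, adjusted p = 0.0288, edgeR). PECAM1 was higher in every shPRMT6 library without passing (0.70, adjusted p = 0.0544), and VWF had a log2 fold change of 1.97 (adjusted p = 0.297), while DESeq2 called 2 of the 3 higher. CDH5 and EMCN had under 10 counts in every library. The part of this difference in the results above was not tested.

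**Figure D5:**
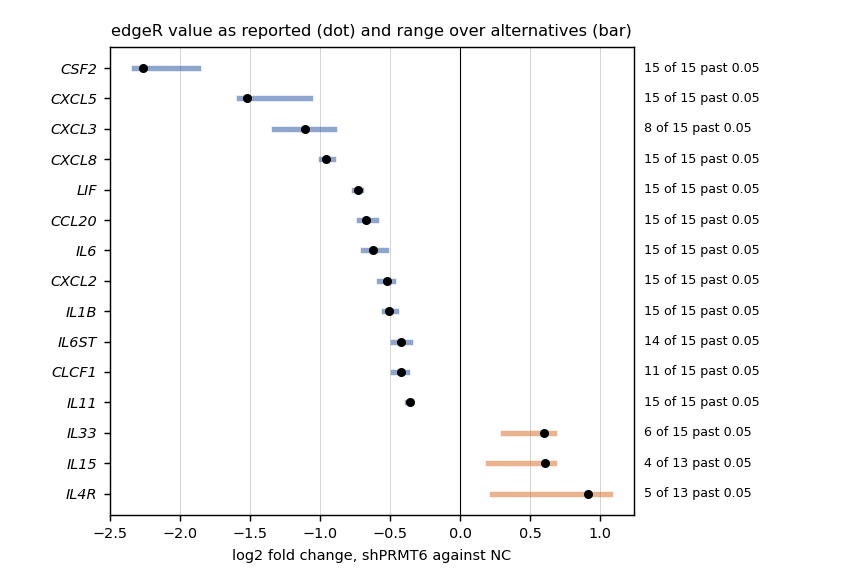
Log2 fold change of the 15 called genes in edgeR as reported (dot) and its range over up to 15 other settings (bar), with the number of settings in which the gene passed an adjusted p of 0.05 at the right. The 9 genes CSF2, CXCL5, CXCL8, LIF, CCL20, IL6, CXCL2, IL1B and IL11 passed in all 15, and no bar crosses 0. How many of all genes tested passed in all 15 was not counted.

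Across the other settings, the 15 called genes kept their direction in every fit that tested them. The 9 genes that passed in all 15 settings were all ligands and all lower. Ligands were 24 of the 35 genes tested. How many of all genes tested passed in every setting was not counted, and the settings reuse the same libraries. Of the 20 genes that were not called, 6 passed in at least 1 setting, namely CSF3, IL1RAP, LIFR, IL12A, CXCL1 and CCL5.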

How the data were processed

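RNA of 6 U87 libraries was examined. According to the labels, total RNA was taken with Trizol and libraries were made with the NEBNext Ultra RNA kit, which does not mark strand, while the methods name an RNeasy kit. The submitters' processing notes name HISAT2, HTSeq 0.13.5 and GRCh38. The annotation release and the strand setting of the counting are not given in the sources used here. The counts that the authors deposited are whole numbers of reads for each gene and library, without normalization. Beside them the authors gave FPKM, which divides by transcript length and by library size and lists a gene with no reads at 0.0001.

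The counts were tested in R 4.3.3 with edgeR 4.0.16 (quasi-likelihood test, its filter on low counts by group, TMM factors from 0.992 to 1.01, Benjamini-Hochberg adjustment over 18106 genes) without a block for the replicate number. CPM values use the TMM factors, and each error after ± is the SD of 3 libraries. Each edgeR SE is the size of the log2 fold change divided by the square root of the test's F value. Samples were grouped by the labels, and no pair of replicates agreed within counting noise (chi-square divided by its degrees of freedom, 52.6 to 86.3). Alternatives were DESeq2 1.42.0, other scaling, other filters, a replicate block, limma 3.58.1 on log2(FPKM + 1) and log2(FPKM + 0.1), and each library left out in turn. The programs were tested on simulated data. There, at an adjusted p under 0.05, 2.46% of the calls were false with edgeR, 8.84% with DESeq2 and 2.59% with limma.

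The members and lists were chosen with earlier results of these data known, so their counts are descriptions. Genes are named by rule: every gene of the list is given, with full values for those past an adjusted p of 0.05 or an absolute log2 fold change above 1, and from each other list the 3 smallest p in each direction among genes past an adjusted p of 0.05. Values of some genes near the threshold, and of genes described for their level, are added outside this rule. Sequences are from RefSeq promoters (GRCh38.p14) and GENCODE 29 transcripts (GRCh38), read with Python 3.11.15.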

Additional observations from a re-analysis of the deposited data

How the results depend on the processing

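The count of called lower genes (12) stayed within 9 and 15 in all 15 settings, and no called gene changed direction. The genes of the list that were tested ran from 26 in the filtered limma fits, with 14 lower in each, to 39. Those tested also varied for other ligands and receptors (16 to 62) and signalling genes (31 to 43). At an adjusted p under 0.05, the share of all genes called was counted only for edgeR as reported, DESeq2 and the replicate block. Other counts below have no such share beside them, and past the threshold of the methods it was counted only for edgeR as reported. Of 505 fits of single genes, 4 changed direction, all for IL10RB or CCL26. The count of called higher genes (3) was 5 with DESeq2, 1 in both limma fits with a filter on FPKM, and 0 with at least 1 count in any library or in limma without a filter, and leaving out a library gave 0 to 2. With the threshold of the methods, 0 genes were higher in edgeR, 1 with DESeq2 and 0 to 1 without a library. Other ligands and receptors called lower were 4 with DESeq2 in place of 1. Signalling genes called lower (2) were 7 with DESeq2, 1 with at least 1 count in any library, 1 in limma without a filter and 1 to 2 without a library. Signalling genes called higher (2) were 7 with DESeq2, 1 in both filtered limma fits and 2 to 3 without a library. PRMT6 was -0.47 in limma without a filter (adjusted p = 0.0578) and -1 to -0.73 without a library. The fold change of IL10RB turned to 0.02 without shPRMT6 replicate 1 and to 0.01 without shPRMT6 replicate 3, and that of CCL26 to -0.08 without NC replicate 3 and -0.09 without shPRMT6 replicate 3. Over all 6 fits without a library, IL10RB ran from -0.80 to 0.02 and CCL26 from -0.09 to 0.52. The causes of these changes were not tested.

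Libraries with the same replicate number did not deviate together (correlations of -0.02, -0.02 and -0.03). These correlations cannot show whether libraries with the same number shared a culture or batch. With the number as a replicate block, 10 genes were called lower and 0 higher, CLCF1, CXCL3, IL33, IL15 and IL4R no longer passed, 1 signalling gene was called lower, and PRMT6 was -0.88 (adjusted p = 0.0803), while 5.01% and 5.25% of all genes tested were called lower and higher. Depth limits the rarest genes of the list, where the fold change of IL16 had the largest SE (1.05).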
